A study of Homo sapiens with 24 samples.

Results

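The HSP70 family of chaperones was followed through the RNA-seq of the lung adenocarcinoma cell line A549, which is human and long established. The list held 10 members: HSPA1A, HSPA1B, HSPA1L, HSPA2, HSPA4, HSPA5, HSPA6, HSPA8, HSPA9 and HSPA13. They were chosen by symbol among the 58721 gene identifiers of each of the 24 libraries, and all 10 passed the filter on low counts in every comparison. The list was drawn up with earlier results of these data known, so the fold changes and adjusted p-values below describe the members and are no independent support for their choice. The list leaves out HSPA4L, HSPA12A, HSPA12B, HSPA14 and the pseudogene HSPA7, which are described with the relatives of the family.

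A549 cells were transfected with 25 nM of siRNA against MYBL2 (siMYBL2, 4 libraries), against FOXM1 (siFOXM1, 4 libraries), or with scrambled control siRNA (siControl, 4 libraries), which both single knockdowns share. In a separate experiment both factors were targeted together (siBoth, 3 libraries) beside scrambled controls of their own (siControl_Both, 3 libraries). In the last experiment cells received 20 µM of FDI-6 for 24 h (FDI6, 3 libraries), a small molecule reported to keep FOXM1 from DNA, or served as its controls (control_FDI6, 3 libraries). The labels name no vehicle for these controls, and the study calls them DMSO. All groups are A549 cells, no genetic change is given for the line, and the study calls its replicates biological. Neither it nor the labels say whether they were separate cultures, so the p-values measure the spread between these libraries, part of which may be technical. The question of each comparison was how loss of MYBL2, of FOXM1 or of both, and treatment with FDI-6, changed the RNA of the cells.

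HSP70 proteins bind and release unfolded stretches of other proteins in a cycle driven by ATP. J-domain proteins bring clients and start ATP hydrolysis, and nucleotide exchange factors of the BAG, HSPBP1 and HSP110 groups open the cycle again. HSPA8 is the constitutive form of the cytosol, HSPA1A, HSPA1B and HSPA6 are switched on by heat shock factor 1 (HSF1) when proteins misfold, HSPA5 (BiP) serves the endoplasmic reticulum (ER) and HSPA9 (mortalin) the mitochondrial matrix. Tumour cells often hold high levels of these chaperones.

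Counts on genes ranged from 16487394 to 30140550 per library, with the FDI6 libraries (16487394 to 17741253) below their controls (18856286 to 21039750). The single knockdowns were visible in every library: MYBL2 was at 4.61 to 8.74 CPM (counts scaled to library size, with TMM factors over the 24 libraries) in siMYBL2 against 133 to 178 in siControl, and FOXM1 at 10.3 to 13.2 CPM in siFOXM1 against 108 to 139. FOXM1 was also lower in siMYBL2, at 58.2 to 89.9 CPM. In siBoth against siControl_Both, the log2 change in DESeq2 was −4.36 for MYBL2 and −3.38 for FOXM1. Of 5 epithelial markers all were detected in each group, and their summed level was 5630 to 6362 CPM in FDI6 against 9699 to 10464 in control_FDI6, 4 of the 5 being called lower. The 9 markers of blood, endothelial and fibroblast cells summed to 5.6 to 61.6 CPM (5.6 to 10.0 in FDI6, 18.3 to 20.6 in control_FDI6), and CD3E was at 0 in each of the 7 groups. These lower marker levels accompanied the FDI-6 changes below, and their part in them was not tested.

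The upstream bases of the stress-inducible members HSPA6, HSPA1A and HSPA1B are shown because HSPA6 had the largest change of all members with FDI-6 and HSPA1A and HSPA1B moved the same way. The heat shock element was searched on both strands as the words GAANNTTC or TTCNNGAA (2 units of 5 bases) and as GAANNTTCNNGAA or TTCNNGAANNTTC (3 units, each of which holds a pair of overlapping 2-unit words). The windows, from RefSeq on GRCh38.p14, run from 250 bases before to 50 after each gene's start, and all 10 members were matched. The bases before the start are printed 5′ to 3′ on the gene's strand, with each 2-unit word in capitals.
HSPA6 (chr1:161524290-161524539, plus strand): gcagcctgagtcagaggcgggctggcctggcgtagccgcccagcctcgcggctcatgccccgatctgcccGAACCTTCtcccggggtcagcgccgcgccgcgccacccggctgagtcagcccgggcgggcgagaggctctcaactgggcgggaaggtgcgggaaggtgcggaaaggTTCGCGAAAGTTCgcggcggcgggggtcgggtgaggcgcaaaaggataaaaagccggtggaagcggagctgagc
HSPA1A (chr6:31815293-31815542, plus strand): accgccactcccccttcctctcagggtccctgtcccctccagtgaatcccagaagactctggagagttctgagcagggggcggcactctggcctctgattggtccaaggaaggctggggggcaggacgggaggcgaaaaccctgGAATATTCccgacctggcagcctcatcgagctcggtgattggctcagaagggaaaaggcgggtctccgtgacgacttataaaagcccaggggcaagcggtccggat
HSPA1B (chr6:31827488-31827737, plus strand): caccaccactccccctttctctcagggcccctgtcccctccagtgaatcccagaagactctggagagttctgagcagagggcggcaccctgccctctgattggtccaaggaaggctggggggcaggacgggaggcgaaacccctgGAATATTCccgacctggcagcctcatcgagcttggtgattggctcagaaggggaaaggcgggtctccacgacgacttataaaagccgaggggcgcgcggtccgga

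HSPA6 held a 3-unit element that begins 74 bases before its start and a separate 2-unit word at −180, while HSPA1A and HSPA1B held a single 2-unit word each, at −106 and −105. The HSPA1A and HSPA1B stretches were identical at 94.4% of 249 aligned bases. HSPA1L is transcribed away from HSPA1A, and 241 bases lie in both of their windows, so the same word stood at −161 of HSPA1L. HSPA9 held a 2-unit word at −4. HSPA8, the constitutive member, held 3-unit elements at −230 and −55, which are printed alone because longer HSPA8 transcripts reach into its window.
HSPA8 at −230 (chr11:123062354-123062366, minus strand): GAAAGTTCCAGAA
HSPA8 at −55 (chr11:123062179-123062191, minus strand): TTCTGGAAGGTTC

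In all, 2 of the 10 members had a 3-unit element against 0.49% of 35116 promoter windows of the same length, and 6 of 10 had a 2-unit word against 13.5%. The 6 are not separate sites, since HSPA1A and HSPA1L share their word and the HSPA1B stretch is a near copy of that of HSPA1A. HSPA5 was the member with an ER stress element, searched on both strands as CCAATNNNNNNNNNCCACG and found in 0.0769% of all windows. Its stretch is printed up to 40 bases before the start, with the element in capitals.
HSPA5 (chr9:125241383-125241593, minus strand): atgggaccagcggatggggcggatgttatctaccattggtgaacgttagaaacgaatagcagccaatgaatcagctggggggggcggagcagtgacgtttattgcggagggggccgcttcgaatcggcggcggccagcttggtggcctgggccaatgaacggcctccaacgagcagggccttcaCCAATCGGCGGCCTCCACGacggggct

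The word of the cell cycle genes homology region (CHR), searched as TTTGAA on both strands, was in 15.2% of all windows. The forkhead word GTAAACA was in 3.42%, and neither was in any of the members' windows. No other form was searched, and TTCGAA, with C for a T of the CHR word, stands in the HSPA5 stretch above. CCAAT, which lies inside the ER stress element too, was in 6 of 10 against 34.6%, HSPA1A, HSPA1B and HSPA1L again among them. These are matches of letters, and their absence says only that the letters are not in these windows.

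Levels of different genes are compared as CPM per kb of the canonical transcript (GENCODE V44). Those of HSPA1A and HSPA1B may be too low, since read pairs that align to both copies may not be counted. HSPA8 (chromosome 11, 123057489 to 123063230, 9 exons), which also strips clathrin from vesicles, was the highest member in every group, from 670 CPM per kb in siMYBL2 to 1143 in siControl_Both. HSPA5 (chromosome 9, 125234853 to 125241382, 8 exons) came next, then HSPA9 (chromosome 5, 138553756 to 138575675, 17 exons), and in no group did the ranges of these 3 members over the libraries overlap. HSPA4 (chromosome 5, 133052013 to 133106449, 19 exons), an HSP110-type exchange factor rather than a folding chaperone, came after these 3 in every group but FDI6, where its range overlapped that of HSPA1A.

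**Figure D1:**
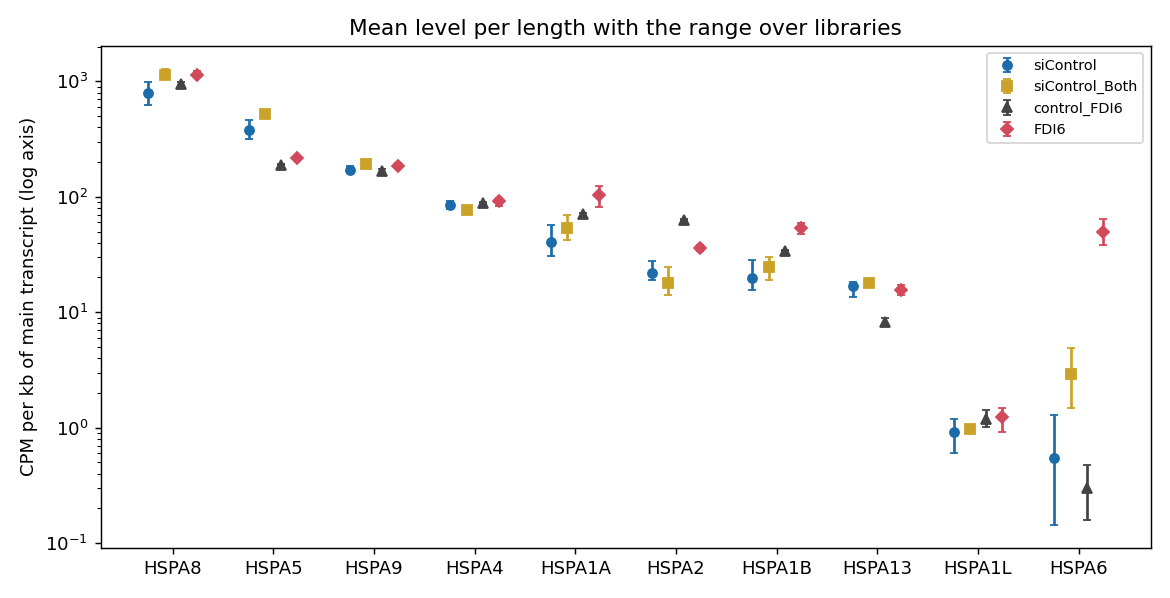
Mean level of each member per kb of its canonical transcript (log axis, CPM per kb) in the 3 control groups and in FDI6, with bars from the lowest to the highest library. HSPA8 is highest throughout, at 790 CPM per kb in siControl, and HSPA6 moves from 0.303 in control_FDI6 to 49.1 in FDI6.

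At the other end, HSPA1L (chromosome 6, 31809619 to 31815283, 2 exons), best known from the testis, stood at 0.818 to 1.23 CPM per kb. HSPA6 was last or next to last in each control group, at 0.551 CPM per kb in siControl, 2.94 in siControl_Both and 0.303 in control_FDI6. With FDI-6 it stood at 49.1 CPM per kb, its range overlapping those of HSPA1B (54.0) and of HSPA2 (35.8). Between these ends, HSPA2 and HSPA1B, and HSPA1B and HSPA13, were not separated in siControl, where their ranges overlapped.

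The control groups of the 3 experiments differed in several members. HSPA5 averaged 746 ± 11.0 CPM (SD, n = 3) in control_FDI6 but 1490 ± 278 (SD, n = 4) in siControl and 2055 ± 111 (SD, n = 3) in siControl_Both. HSPA13 showed the same order, at 32.6 ± 2.25, 66.0 ± 8.63 and 71.1 ± 3.13 CPM, and HSPA2 the opposite one, at 158 ± 1.59, 54.5 ± 9.78 and 45.1 ± 14.2 CPM. These differences cannot be told apart from the experiment, transfection included, so each treatment was read against its own controls.

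**Figure D2:**
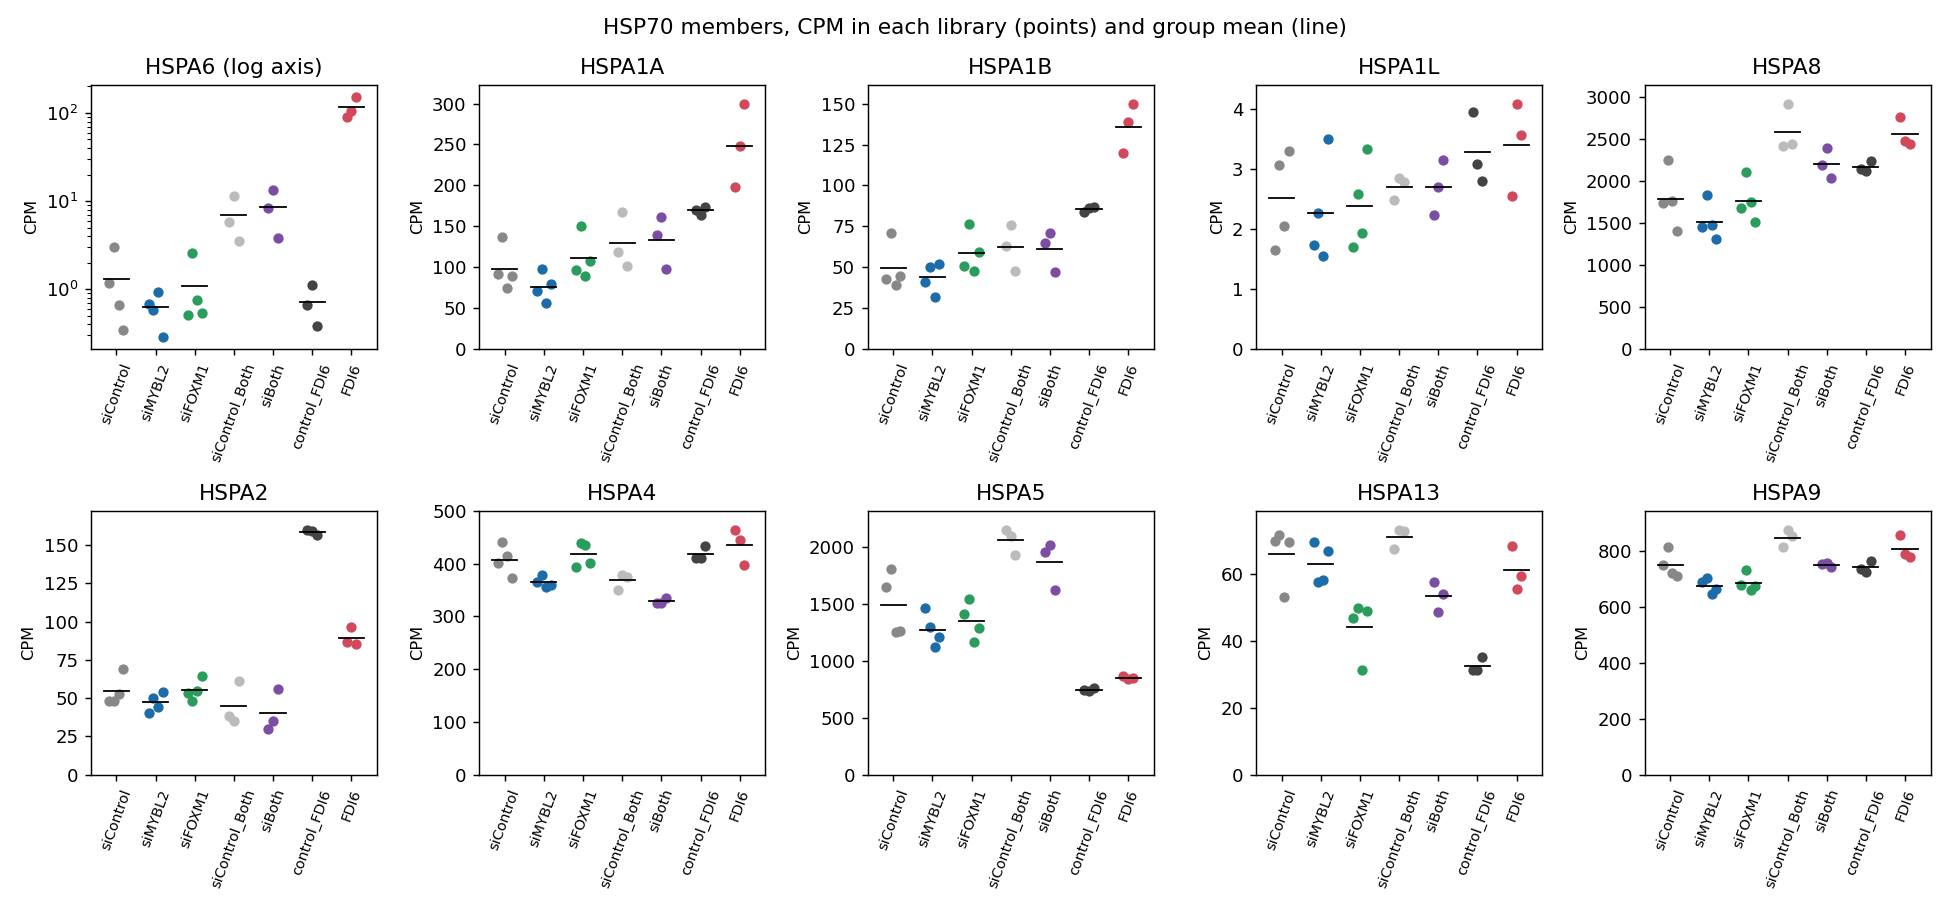
CPM of each member in every library (points) with the group mean (line), HSPA6 on a log axis and the rest from 0. The 3 FDI6 libraries stand above all other libraries for HSPA6, HSPA1A and HSPA1B, and HSPA5, HSPA2 and HSPA13 differ between the control groups.

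HSPA6 rose far more than any other member with FDI-6. HSPA6 (chromosome 1, 161524540 to 161526894, 1 exon), a stress-inducible member that unstressed cells barely transcribe, was at 0.651, 1.11 and 0.377 CPM in the control_FDI6 libraries (12, 23 and 7 counts). It was at 90.4, 104 and 152 CPM in the FDI6 libraries (1490, 1787 and 2733 counts). Every treated library lay far above every control, and the log2 fold change was 7.30 ± 0.28 (SE, n = 3 per group), a 158-fold rise (edgeR, Benjamini-Hochberg adjusted p = 2.68e-08). HSPA6 passed the filter on low counts through the treated group, since 2 of the 3 controls reached the limit that 3 libraries must reach. HSPA6 shares 15.3% of its 150-base windows with the pseudogene HSPA7, which had 0 to 2 counts in each of the 24 libraries. In bulk RNA, fewer cells that hold a transcript and less of it per cell cannot be told apart, here and in the results that follow.

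HSPA1B (chromosome 6, 31827738 to 31830254, 1 exon) and HSPA1A (chromosome 6, 31815543 to 31817946, 1 exon) encode nearly the same inducible HSP70 protein. HSPA1B was at 83.6, 86.0 and 86.7 CPM in control_FDI6 and at 120, 139 and 150 CPM in FDI6. HSPA1A was at 170, 164 and 174 CPM in control_FDI6 and at 197, 248 and 299 CPM in FDI6. In both genes all treated libraries were above all controls, and the treated libraries spread more widely. The rise was 0.67 ± 0.09 on the log2 scale for HSPA1B (SE, n = 3 per group, edgeR adjusted p = 0.000116), and 0.55 ± 0.12 for HSPA1A (adjusted p = 0.00362), short of 1.5-fold. Without single libraries the HSPA1A value ran from 0.39 (without FDI6 replicate 3, its highest library) to 0.69 (without FDI6 replicate 1, its lowest treated library), the latter past 1.5-fold. It also passed 1.5-fold with a correction for GC content and length (0.80) and with both genes added into a single count (0.59), and lost its adjusted p under 0.05 in the fit of all 24 libraries.

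Read pairs cannot always be assigned to either gene: 69.6% of the 150-base windows of HSPA1A and 70.1% of those of HSPA1B are also found in another gene's transcripts, mainly the other copy. HTSeq by default leaves out pairs that align to more than a single place, so the separate values of HSPA1A and HSPA1B are uncertain. The ratio of HSPA1A to HSPA1B counts was 1.81 ± 0.18 (SD, n = 3) in FDI6 and 1.98 ± 0.06 (SD, n = 3) in control_FDI6, and the ranges of the groups overlapped. The readthrough gene that covers 36.6% of the HSPA1B exon bases was listed at 0 in every library. Pairs on bases of both genes may be set aside as ambiguous, so this 0 does not show that HSPA1B lost no pairs.

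HSPA1L, the neighbour that shares its promoter region with HSPA1A, had 42 to 73 counts in these 6 libraries. It was at 2.55 to 4.08 CPM in FDI6 and 2.80 to 3.96 in control_FDI6, with overlapping groups and a log2 difference of 0.05 (95% interval −0.45 to 0.55).

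HSPA13 (chromosome 21, 14371115 to 14383484, 5 exons), a microsome-associated member without the usual substrate-binding part, was at 31.3, 31.3 and 35.2 CPM in control_FDI6 and at 68.3, 55.6 and 59.2 CPM in FDI6. The groups did not overlap, and HSPA13 rose by 0.90 ± 0.09 on the log2 scale (SE, n = 3 per group, edgeR adjusted p = 2.99e-05). HSPA13 has the lowest GC content of the members (34.5%), and with the correction for GC content and length its rise was 0.55 (adjusted p = 7.77e-06), under 1.5-fold.

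HSPA2 (chromosome 14, 64535905 to 64546173, 1 exon), a member needed in sperm formation and also present in many tumour lines, was the member that fell. It was at 160, 159 and 157 CPM in control_FDI6 and at 86.5, 96.1 and 85.3 CPM in FDI6, with no overlap. Its log2 fold change was −0.83 ± 0.07 (SE, n = 3 per group, edgeR adjusted p = 5.54e-06), a 1.78-fold lower level.

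The constitutive HSPA8, HSPA5 of the ER, HSPA9 of the mitochondria and HSPA4 moved little, and less than HSPA13 and HSPA2. HSPA8 was at 2141, 2117 and 2241 CPM in control_FDI6 and at 2760, 2476 and 2444 CPM in FDI6, a log2 change of 0.24 ± 0.06 (adjusted p = 0.00672). Its groups did not overlap, yet the change is 1.18-fold. HSPA5 was at 745, 736 and 758 CPM in control_FDI6 and at 863, 836 and 850 CPM in FDI6, again without overlap, a log2 change of 0.18 ± 0.05 (adjusted p = 0.0136) that was 0.08 (adjusted p = 0.171) with the GC and length correction. HSPA9 was at 736, 726 and 766 CPM in control_FDI6 and at 857, 791 and 778 CPM in FDI6, and HSPA4 at 411, 411 and 434 against 463, 445 and 397 CPM. Neither passed the test, with log2 changes of 0.12 (95% interval −0.004 to 0.24, adjusted p = 0.115) for HSPA9 and 0.05 (−0.09 to 0.20, adjusted p = 0.554) for HSPA4, and with the GC and length correction both values turned negative, to −0.09 for HSPA9 and to −0.17 (adjusted p = 0.0118) for HSPA4.

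In counts, 3 of the 10 members were called higher with FDI-6 (HSPA6, HSPA1B and HSPA13) and 1 was called lower (HSPA2), with more than a 1.5-fold change and an adjusted p below 0.05. Among all 15240 genes tested, 8.0% were called higher and 5.77% lower. At an adjusted p under 0.05 with no minimum fold, 7 of 10 members passed, against 38.9% of all genes. HSPA6 is in both counts and passed the filter on low counts through the treated group, so its call adds no support to either.

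**Figure D3:**
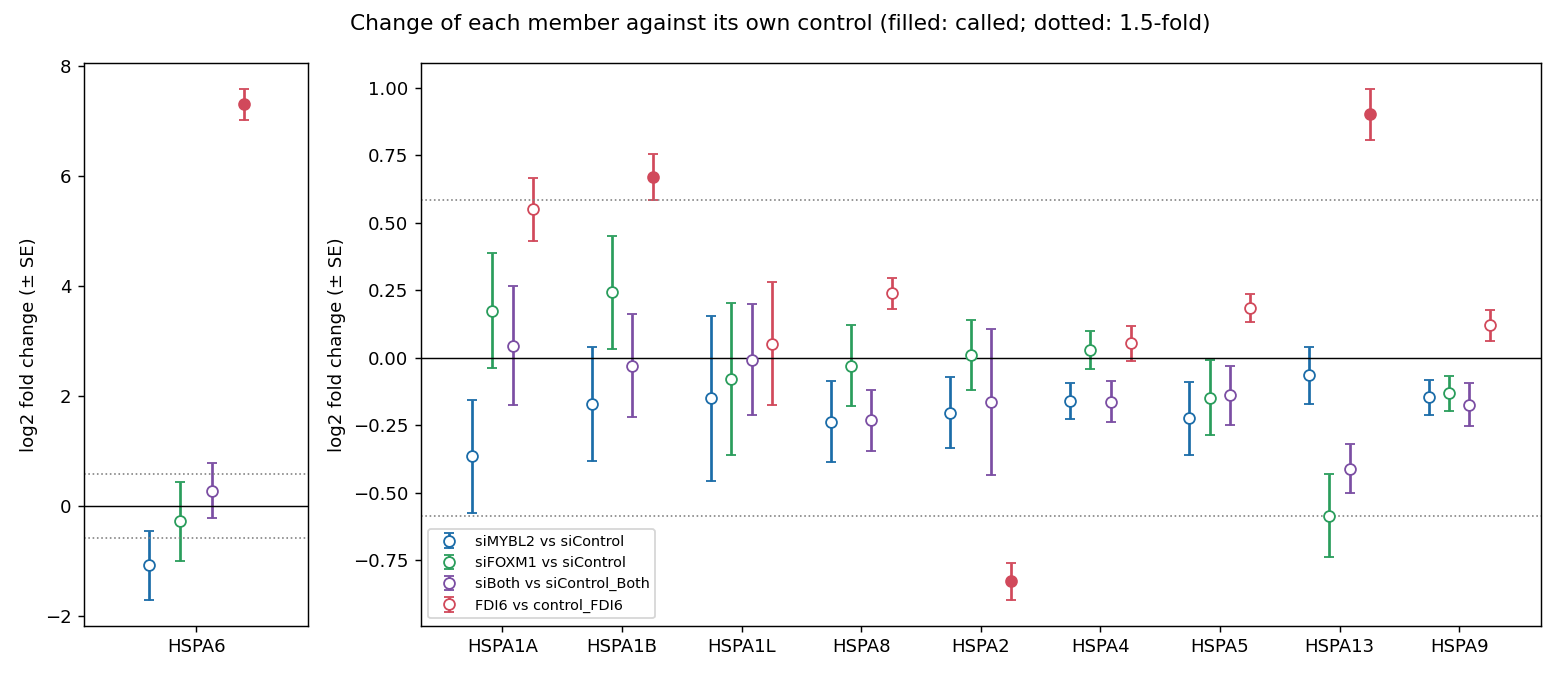
Log2 fold change (± SE) of each member in the 4 comparisons, HSPA6 on an axis of its own, with filled points for members called and dotted lines at 1.5-fold. FDI-6 gives the filled points, from −0.83 for HSPA2 to 7.30 for HSPA6, and no knockdown gives one.

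No member was called with siMYBL2 in the edgeR fit without pairing, against 4.38% of 16065 genes called higher and 3.52% lower. A single member passed at an unadjusted p under 0.05, and DESeq2 called 0. The share of all genes at an unadjusted p under 0.05 was not computed. Counts at that limit, here and below, therefore cannot be set against all genes. All 10 log2 values were below 0, from −1.08 for HSPA6 to −0.07 for HSPA13, with a median of −0.19 against 0.015 over all genes tested. HSPA1B turned to 0.05 without siControl replicate 2, and HSPA13 to 0.01 without the replicate 2 libraries of both groups. HSPA6 rested on 8 to 80 counts per library, was at 0.286 to 0.927 CPM in siMYBL2 and 0.338 to 3.03 in siControl, and without siControl replicate 2 its value was −0.23.

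Libraries of the same replicate number deviated together in the knockdown experiments, so the fits were repeated with the replicate number as a block. Then 6 members passed at an adjusted p under 0.05, all lower and all within 1.5-fold, against 46.7% of genes passing in either direction. HSPA1A was at 70.3, 98.1, 55.8 and 79.7 CPM in siMYBL2 replicates 1 to 4 and at 91.8, 137, 73.9 and 89.0 CPM in the same-numbered siControl libraries, lower in each of the 4 pairs. With the block its log2 change was −0.36 ± 0.05 (SE, n = 4 pairs, edgeR adjusted p = 0.000103).

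HSPA8 was at 1446, 1834, 1474 and 1310 CPM in siMYBL2 and at 1735, 2251, 1758 and 1408 CPM in siControl, again lower in each pair (blocked −0.23 ± 0.04, edgeR adjusted p = 0.000312). HSPA5 (−0.21), HSPA2 (−0.20), HSPA4 (−0.16) and HSPA9 (−0.14) completed the 6. In all, 5 members were lower in every same-numbered pair (HSPA1A, HSPA4, HSPA5, HSPA8 and HSPA9), against 28.1% of genes tested, and 0 were higher in every pair, against 29%.

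HSPA13 had the largest difference. It was at 46.9, 49.8, 31.2 and 48.9 CPM in siFOXM1 and at 69.9, 71.7, 53.2 and 69.4 CPM in siControl, so each group had a low replicate 3 and each siFOXM1 library was below its same-numbered control. No siFOXM1 library reached the lowest siControl library. The log2 change was −0.58 ± 0.15 (SE, n = 4 per group, edgeR adjusted p = 0.119), and −0.59 ± 0.04 with the replicate block (adjusted p = 7.30e-11), where HSPA13 was called lower.

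Thus no member was called without the block, against 0.0755% of 15892 genes called higher and 0.591% lower, with 1 member at an unadjusted p under 0.05. With the block 1 was called lower, against 1.47% of genes, and DESeq2, without a block, called the same gene. The value lies at the 1.5-fold limit, and with GC and length corrected in the blocked fit it was −0.52 and no longer called. Without the replicate 3 libraries of both groups it was −0.54 (adjusted p = 0.0173).

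The other members changed less. With the block, HSPA1B rose by 0.25 ± 0.05 on the log2 scale (edgeR adjusted p = 0.000126) and HSPA1A by 0.18 ± 0.04 (adjusted p = 0.000536), both higher in each of the 4 pairs. HSPA5 fell by 0.14 and HSPA9 by 0.13, so that 5 of 10 members passed at an adjusted p under 0.05 in either direction, against 26.3% of genes. HSPA9 and HSPA13 were lower in every pair (19.6% of genes were) and HSPA1A and HSPA1B higher in every pair (20.9%). The HSPA1A value without the block fell to −0.01 when siFOXM1 replicate 2, its highest library, was left out.

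HSPA13 was again the member with the clearest difference, at 57.7, 48.6 and 54.0 CPM in siBoth and 67.5, 73.1 and 72.8 CPM in siControl_Both, with no overlap. Its log2 change was −0.41 ± 0.09 (SE, n = 3 per group, edgeR adjusted p = 0.0250), a 1.33-fold lower level, and −0.23 (adjusted p = 0.0740) with the GC and length correction. Leaving out single libraries gave −0.48 to −0.35, with the adjusted p above 0.05 without siBoth replicate 2 (0.0564), siControl_Both replicate 2 (0.0886) or siControl_Both replicate 3 (0.0908).

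No member passed 1.5-fold with siBoth, against 2.80% of 15812 genes called higher and 3.64% lower, 1 member had an unadjusted p under 0.05 and DESeq2 called 0. With the block, HSPA8 (−0.23, adjusted p = 0.0190) and HSPA13 (adjusted p = 0.000847) were the 2 members that passed at an adjusted p under 0.05, against 34.8% of genes. HSPA2, HSPA4, HSPA5, HSPA8, HSPA9 and HSPA13, 6 members, were lower in each of the 3 pairs (30.5% of genes were), and HSPA6 was higher in each (30.7%). HSPA6 was at 8.35, 13.2 and 3.77 CPM in siBoth and 5.83, 11.4 and 3.50 CPM in siControl_Both, so its groups overlapped.

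Several members were highest in the libraries numbered 2 of the transfected cells. The 5 siRNA groups come from separate experiments, and nothing ties the numbers of one to those of the other. HSPA1A, HSPA8 and HSPA9 were highest in replicate 2 in all 5 siRNA groups, as were 2.19% of 11512 genes with at least 50 counts in every such library. Within the single-knockdown experiment, these members and HSPA4 were highest in replicate 2 in all 3 groups, as were 7.11% of 11845 genes. HSPA1A replicate 2 was at 137 CPM in siControl, 151 in siFOXM1, 98.1 in siMYBL2, 168 in siControl_Both and 162 in siBoth, and the other libraries of those groups were at 55.8 to 139 CPM. HSPA6 was highest in replicate 2 in 4 of the 5 groups, the exception being siMYBL2, HSPA1L in 1 and HSPA2 in 0. Within siControl alone HSPA1A ran from 73.9 to 137 CPM.

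**Figure D4:**
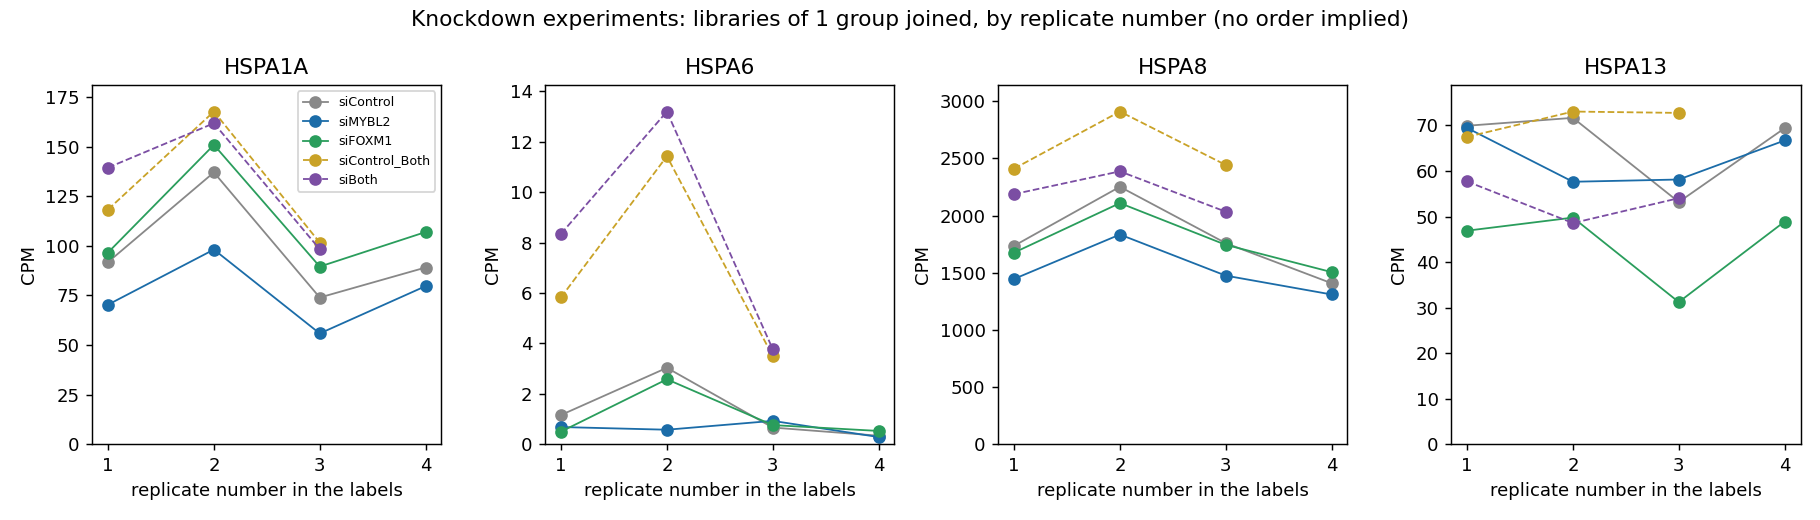
CPM of HSPA1A, HSPA6, HSPA8 and HSPA13 in the siRNA libraries by the replicate number of the labels, with lines that join libraries of a group and imply no order. Replicate 2 is the highest library of each group for HSPA1A and HSPA8, at 137 and 2251 CPM in siControl, and replicate 3 is the lowest for HSPA13 in siControl and siFOXM1.

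A single fit of all 24 libraries tested whether the change with FDI-6 differed from each knockdown's change. HSPA6 differed by 8.40 ± 0.97 on the log2 scale from siMYBL2 (edgeR adjusted p = 2.46e-06), by 7.60 ± 0.94 from siFOXM1 (adjusted p = 9.00e-06) and by 7.03 ± 0.87 from siBoth (adjusted p = 4.15e-06). HSPA13, which rose with FDI-6, differed by 0.97 ± 0.19 (adjusted p = 0.000602), 1.48 ± 0.19 (adjusted p = 1.06e-05) and 1.32 ± 0.20 (adjusted p = 3.91e-05) in the same order. These contrasts were not run with the GC and length correction, which moved HSPA13 to 0.55 with FDI-6 and to −0.23 with siBoth. HSPA9 differed too, by 0.27, 0.25 and 0.30, but passed none of the 3 tests under upper-quartile scaling (0.15, 0.19 and 0.17). Its calls were also lost without any of 4 single libraries against siMYBL2 and any of 9 against siFOXM1 (highest adjusted p = 0.0672 and 0.118).

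HSPA1A (0.92, adjusted p = 0.0403) and HSPA1B (0.84, adjusted p = 0.0375) differed from siMYBL2 but did not pass against siFOXM1 (0.37, 95% interval −0.30 to 1.04, and 0.42, −0.18 to 1.03) or siBoth (0.51, −0.20 to 1.22, and 0.70, 0.06 to 1.35). Both calls against siMYBL2 were lost under upper-quartile scaling and without any of 8 single libraries: siMYBL2 replicate 1 or 3, siControl replicate 2, FDI6 replicate 2 or 3, or any of the control_FDI6 libraries. Without siControl replicate 2 the values were 0.71 (adjusted p = 0.102) and 0.62 (adjusted p = 0.0977). HSPA2 differed from siFOXM1 by −0.84 (adjusted p = 0.0272), a call lost without any of 7 single libraries: siFOXM1 replicate 4, siControl replicate 1 or 2, FDI6 replicate 1 or 3, or control_FDI6 replicate 1 or 2 (adjusted p = 0.0524 to 0.0656).

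In counts, 5 members differed between FDI-6 and siMYBL2, 4 between FDI-6 and siFOXM1 and 3 between FDI-6 and siBoth, against 25.1%, 20.0% and 29.5% of the 17752 genes in the fit. With the replicate number within each experiment as a block, the counts were 9, 8 and 9, against 42.0%, 37.7% and 45.7% of genes. The single member that did not pass in any of the blocked contrasts was HSPA1L. The FDI-6 experiment differs from the others in transfection, depth and control levels, which cannot be told apart from the treatment in these differences.

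Between the single knockdowns, siMYBL2 against siFOXM1, no member was called by edgeR with more than a 1.5-fold change and an adjusted p below 0.05 (10.8% of genes were), 4 had an unadjusted p under 0.05 and DESeq2 called 0. HSPA13 was 0.51 ± 0.12 higher on the log2 scale in siMYBL2 (adjusted p = 0.00295) and HSPA4 0.20 ± 0.06 lower (adjusted p = 0.0202), the 2 members with an adjusted p under 0.05, against 25.3% of genes. With the replicate block 6 members did, as 42.0% of genes, and none of the 6 passed 1.5-fold. HSPA1A was 0.55 ± 0.21 lower in siMYBL2 (adjusted p = 0.0625), and passed both limits without siMYBL2 replicate 2 (−0.69) or without siFOXM1 replicate 3 (−0.64). Without single libraries its value ran from −0.69 to −0.36, with an edgeR adjusted p of up to 0.249.

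Of 7 relatives, 6 were tested and 0 were called in any comparison. HSPA4L, an exchange factor of the HSP110 group, rose with FDI-6 by 0.54 ± 0.10 on the log2 scale (edgeR adjusted p = 0.00100), from 62.7 ± 2.58 to 91.5 ± 12.9 CPM (SD, n = 3), under 1.5-fold. HSPH1 of the same group rose by 0.35 (adjusted p = 0.000640). HSPA7 did not pass the filter on low counts. With FDI-6, 3 relatives had an unadjusted p under 0.05, with siMYBL2 and siFOXM1 1 each and with siBoth 0, and DESeq2 called 0 throughout.

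Heat shock factors and other genes known as HSF1 targets, 12 in number, had a median log2 change of 0.25 with FDI-6, against −0.01 over all genes. A single gene of the 12, CRYAB, was called, beside the 8.0% of all genes called higher. It encodes a small heat shock protein, had 5 to 8 counts in the control_FDI6 libraries and 54 to 80 in FDI6, and rose by 3.42 ± 0.31 (edgeR adjusted p = 1.09e-05). CRYAB passed the filter on low counts through the treated group alone, since 0 of the 3 controls reached its limit, so its call supports nothing on the list. DNAJB1, the J-domain partner induced with HSP70, rose by 0.53 (adjusted p = 0.000118) and BAG3, an exchange factor, by 0.46 (adjusted p = 0.00203), both short of 1.5-fold. At an adjusted p under 0.05 with no minimum fold, 7 of the 12 rose and 1 fell, SERPINH1, a collagen chaperone of the ER (−0.18, adjusted p = 0.0429). Among all genes 38.9% passed at that level in either direction. CRYAB is among the 7 and in the median of the list, and adds no support to either. HSF1 itself did not pass (−0.13, 95% interval −0.36 to 0.10).

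With siMYBL2, edgeR called 1 of the 12, HSF1, which was lower, against 3.52% of all genes called lower. DESeq2 called 2, HSF1 and DNAJB1. HSF1 was at 62.1 to 70.5 CPM in siMYBL2 and 95.6 to 113 CPM in siControl, without overlap, a log2 change of −0.66 ± 0.07 (SE, n = 4 per group, edgeR adjusted p = 0.000525). DNAJB1 fell by 0.58 (edgeR adjusted p = 0.00540), just under 1.5-fold, and by 0.59 in DESeq2 (adjusted p = 1.32e-05). With siFOXM1 and siBoth, 0 of the 12 were called by edgeR or DESeq2, and 1 and 2 of them had an unadjusted p under 0.05.

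Several genes stand on more than a single list (HSPH1, BAG3, DNAJB1 and HYOU1). Of 18 cytosolic partners, edgeR called 0 in any comparison, and DESeq2 called 1, DNAJB1 with siMYBL2. At an unadjusted p under 0.05 were 8, 1, 5 and 10 for siMYBL2, siFOXM1, siBoth and FDI-6, with no share of all genes to compare. At an adjusted p under 0.05 with no minimum fold, 10 of the 17 tested passed with FDI-6, 6 higher and 4 lower, against the 38.9% of all genes. DNAJB1 was the highest of them (0.53), and BAG1, an exchange factor, fell by 0.58 (adjusted p = 0.000450) and HSPBP1 by 0.48 (adjusted p = 0.00218). With siMYBL2, 7 of 18 passed at that level (18.1% of genes did), 6 of them lower, such as STIP1 (−0.34), which hands clients from HSP70 to HSP90, and ST13 (−0.28). The 1 that rose was DNAJB4, a J-domain protein, from 32.4 to 41.5 CPM in siControl to 52.2 to 54.2 in siMYBL2 (0.56 ± 0.08, adjusted p = 0.00226).

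Among the 12 ER partners edgeR made 1 call (8.0% of all genes were called higher with FDI-6), and DESeq2 2, the second being SEC63 with siBoth. The edgeR call was DNAJB9 with FDI-6, an ER J-domain protein that works with HSPA5. It rose by 0.82 ± 0.10 (edgeR adjusted p = 0.000128), from 10.4 to 11.5 CPM in control_FDI6 to 18.2 to 20.5 in FDI6, while SDF2L1 (−0.44) and MANF (−0.34) fell. DNAJC10 was at 116 to 125 CPM in control_FDI6 and 165 to 203 in FDI6, and DNAJC3 at 32.5 to 35.9 and 41.1 to 49.0. At an adjusted p under 0.05 with no minimum fold, 7 of the 12 passed with FDI-6, 4 higher and 3 lower, against 38.9% of all genes. SEC63, the J-domain protein of the ER translocon, fell by 0.53 with siFOXM1 (adjusted p = 0.0163) and by 0.58 with siBoth (adjusted p = 0.00767), both under 1.5-fold in edgeR, where 1.37% and 12.3% of genes passed at that level. In DESeq2 the siBoth value was −0.59 (adjusted p = 1.65e-05), past 1.5-fold. Of 12 mitochondrial partners, 10 or 11 were tested and 0 were called by edgeR or DESeq2, with 1 to 3 at an unadjusted p under 0.05, HSPE1, the mitochondrial co-chaperonin, being lowest with FDI-6 (−0.54, adjusted p = 0.0121).

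With FDI-6 the median log2 change was 0.22 for the relatives, 0.06 for the cytosolic, −0.05 for the ER and −0.07 for the mitochondrial partners. With siMYBL2 the medians were −0.04, −0.15, −0.03 and −0.11 in the same order and −0.19 for the heat shock factors and HSF1 targets, against 0.015 over all genes. With siFOXM1 and siBoth the medians of these lists ran from −0.11 for the mitochondrial partners in siBoth to 0.005 for the relatives in siFOXM1.

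**Figure D5:**
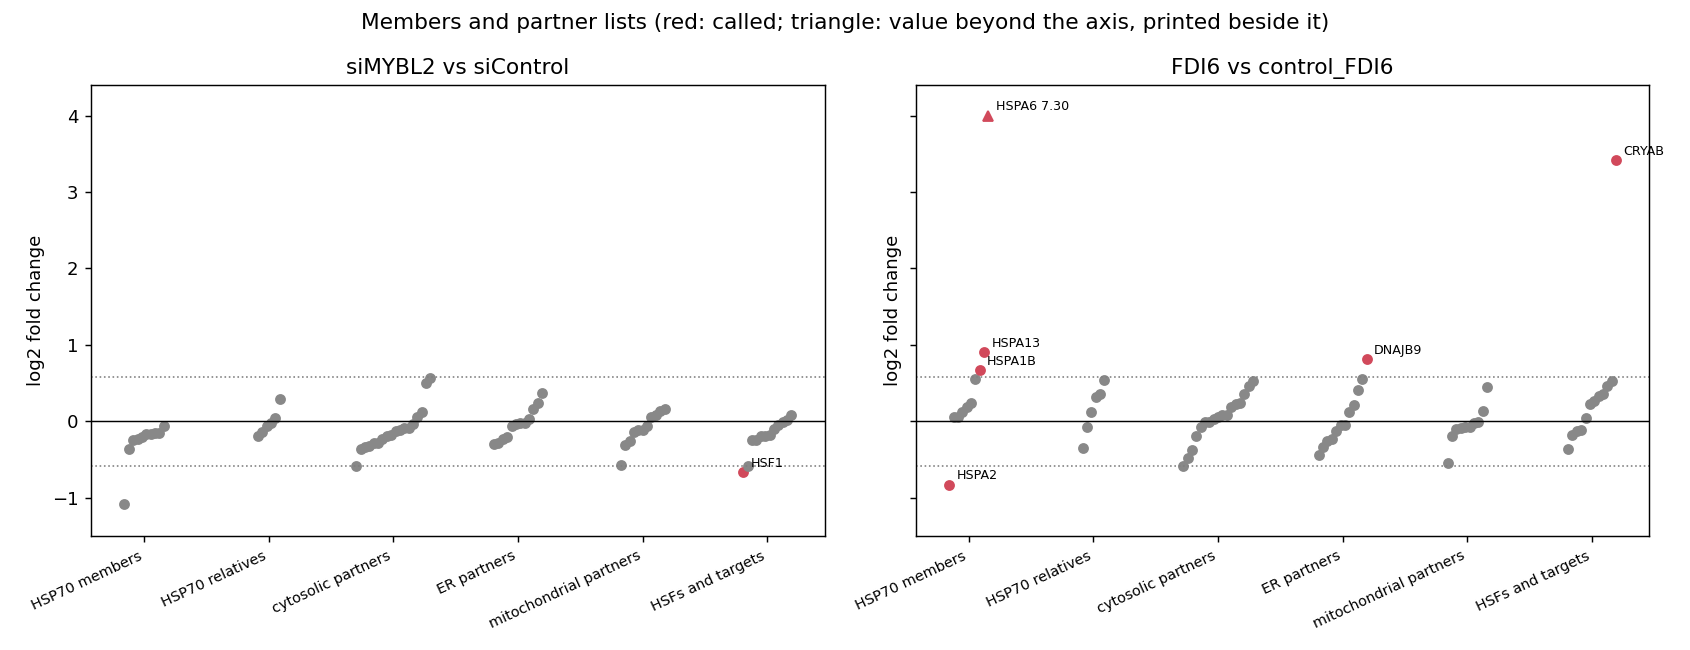
Log2 fold change of the tested members and of each partner list with siMYBL2 (left) and FDI-6 (right), in red where called, with dotted lines at 1.5-fold and a triangle for HSPA6 (7.30), which lies beyond the axis. With FDI-6 the called genes are HSPA6, HSPA13, HSPA1B, HSPA2, DNAJB9 and CRYAB, and with siMYBL2 the called gene is HSF1.

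Over the 24 libraries, each expressed as log2 CPM relative to the mean of its own controls, the 3 genes most like 4 of the members were taken among 11369 genes with at least 100 counts on average. HSPA1A was most like HSPA1B (Pearson r = 0.944), BAG3 (0.891) and MYEOV (0.882), the first of which shares reads with it. HSPA8 was most like HSP90AA1 (0.952), MYOF (0.922) and HSPH1 (0.90). HSPA5 was most like PPP1R11 (0.862) and LURAP1L (0.843), and HSPA9 most like KCMF1 (0.958), IARS1 (0.930) and WDR75 (0.924). These values describe libraries that share groups, controls and replicate numbers, and carry no test.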

How the data were processed

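The authors trimmed the reads with Trim Galore, aligned them to hg38 with STAR and made the deposited counts per GENCODE V29 gene with HTSeq, without normalization. Tool versions and the strand setting are not given in the sources used here, so reads of overlapping genes on opposite strands, such as 11.4% of the HSPA8 exon bases, cannot be told apart. HTSeq set aside 7.88% to 11.20% of the pairs of a library as ambiguous and 2.29% to 4.14% as not unique. The share not aligned was 9.09% to 10.93% in siBoth, 7.68% to 7.92% in siControl_Both and 1.73% to 3.03% in the other groups. The part of this difference in the siBoth changes was not tested.

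Of 58721 identifiers, 58207 matched GENCODE V44 on the same build by their stem. Counts were tested with edgeR 4.0.16 in R 4.3.3: TMM scaling, edgeR's filter on low counts, each comparison on its own groups without a block, the quasi-likelihood test and Benjamini-Hochberg adjustment, a gene being called with over 1.5-fold change and an adjusted p below 0.05. The standard error is the log2 change divided by the square root of F. Its 95% intervals use the t quantile at the degrees of freedom of each gene's test. Printed CPM use TMM factors over all 24 libraries, so ratios of their means can differ from the fitted folds. Differences between treatments came from a fit of all 24 libraries and were called at an adjusted p under 0.05.

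Libraries were paired by the labels' replicate numbers. Deviations of same-numbered libraries correlated at 0.548 to 0.909 in the 3 knockdown comparisons and at −0.296 to 0.166 with FDI-6. No libraries of a group agreed within sampling noise (chi-square per gene 3.57 to 62.81). The scripts were tested on simulated data.

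Alternatives were DESeq2 1.42.0, other scalings and filters, the block, a correction for GC content and length (a trend of 5 degrees of freedom over genes with at least 50 counts on average), HSPA1A and HSPA1B added together, and leaving out each library. Leaving out both libraries of a replicate number was added after the data were seen. The members and gene lists were chosen with earlier results of these data known, and named genes are all members, per list those called with the largest change, and the 3 genes most like HSPA1A, HSPA5, HSPA8 and HSPA9, of which 1 for HSPA5 is not reported here. Other list genes named were picked after their values were seen.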

Additional observations from a re-analysis of the deposited data

Results flagged for a closer look

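In 3 of the 30 sets of 4 libraries tested, a library lay far from the rest of its group, where chance alone gives about 1 in 20. HSPA6 was at 2.58 CPM in siFOXM1 replicate 2 and at 0.50 to 0.76 CPM in the other siFOXM1 libraries. HSPA13 was at 31.21 CPM in siFOXM1 replicate 3 against 46.89 to 49.77 CPM in the rest, and at 53.18 CPM in siControl replicate 3 against 69.40 to 71.67 CPM. The low HSPA13 libraries carry the same replicate number in both groups.

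The change with FDI-6 differed from that with siMYBL2, tested in the fit of all 24 libraries with edgeR, by 8.40 on the log2 scale for HSPA6 (adjusted p = 2.46e-06), 0.97 for HSPA13 (0.000602), 0.92 for HSPA1A (0.0403), 0.84 for HSPA1B (0.0375) and 0.27 for HSPA9 (0.0224). It differed from that with siFOXM1 by 7.60 for HSPA6 (adjusted p = 9.00e-06), 1.48 for HSPA13 (1.06e-05), −0.84 for HSPA2 (0.0272) and 0.25 for HSPA9 (0.0414). Against siBoth the differences were 7.03 for HSPA6 (adjusted p = 4.15e-06), 1.32 for HSPA13 (3.91e-05) and 0.30 for HSPA9 (0.0162). Between siMYBL2 and siFOXM1, HSPA13 differed by 0.51 (adjusted p = 0.00295) and HSPA4 by −0.20 (adjusted p = 0.0202).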

How the results depend on the processing

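The 4 FDI-6 calls, HSPA6, HSPA1B, HSPA13 and HSPA2, kept their direction under every alternative in which they were tested. HSPA13 passed under 1.5-fold and HSPA1A over it with the GC and length correction. HSPA6, with 7 counts in control_FDI6 replicate 3, was not tested under the filter of at least 10 counts in every library. The count was 4 to 5 without single libraries and 7 with no minimum fold. With siFOXM1 the count was 1 in place of 0 with DESeq2 and 1 with the replicate block, and with siBoth it was 1 with no minimum fold. Members whose FDI-6 change differed from the siMYBL2 change numbered 3 under upper-quartile scaling and 2 to 9 without single libraries, against siFOXM1 2 to 4, and between siMYBL2 and siFOXM1 0 to 1 were called. The causes were not tested.

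Pairing by replicate number, with the number as a block, gave 9 members that differed between FDI-6 and siMYBL2, 8 for siFOXM1 and 9 for siBoth, and beside those given in the report it changed no other call. The FDI-6 libraries share only a number (same-number correlations −0.296 to 0.166), and there the block left the 4 calls in place.

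Some values changed sign between settings. HSPA4 in FDI6 passed at an adjusted p under 0.05 after its change with the GC and length correction (edgeR adjusted p = 0.0118). With the GC and length correction, alone and with the replicate block, HSPA2 in siFOXM1 was −0.013 and −0.009, HSPA1A in siBoth −0.096 and −0.088, HSPA4 in FDI6 −0.173 and −0.174, and HSPA9 in FDI6 −0.091 and −0.091. With upper-quartile scaling HSPA1B and HSPA1L in siBoth were 0.047 and 0.069, HSPA4 for FDI-6 less siFOXM1 −0.040, HSPA1L for FDI-6 less siBoth −0.068, and HSPA9 for siMYBL2 against siFOXM1 0.033. That scaling moved the share of higher calls over all genes from 55.5% to 63.8% with siMYBL2, from 43.5% to 59.4% with siBoth and from 58.1% to 49.8% with FDI-6. The block raised all calls with siFOXM1 to 167 higher and 234 lower, from 12 and 94.

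Without single libraries, or without both libraries of a number (chosen after seeing the data), siMYBL2 values ran from −0.323 to 0.050 for HSPA1B and −0.162 to 0.012 for HSPA13. In siFOXM1 they ran from −0.011 to 0.382 for HSPA1A, −0.287 to 0.070 for HSPA1L, −0.071 to 0.140 for HSPA2, −0.014 to 0.071 for HSPA4, −1.133 to 0.577 for HSPA6 and −0.131 to 0.101 for HSPA8. In siBoth they ran from −0.121 to 0.276 for HSPA1A, −0.188 to 0.135 for HSPA1B, −0.149 to 0.101 for HSPA1L, −0.496 to 0.123 for HSPA2 and −0.194 to 0.857 for HSPA6. HSPA1L ran from −0.101 to 0.220 in FDI6, −0.028 to 0.335 for FDI-6 less siFOXM1, −0.091 to 0.228 for FDI-6 less siBoth and −0.368 to 0.133 for siMYBL2 against siFOXM1. HSPA4 for FDI-6 less siFOXM1 ran from −0.024 to 0.100, and for siMYBL2 against siFOXM1 HSPA6 ran from −1.055 to 0.041 and HSPA9 from −0.042 to 0.011. HSPA6 and HSPA1L in the knockdowns, with 8 to 101 counts in the single knockdowns and their controls, are the members that depth limits most.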
